A study of Mus musculus with 24 samples.

Results

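Cisplatin, pemetrexed and trametinib given together for 24 h were compared, gene by gene, with what their separate effects add up to. The comparison rests on 12 of the 24 libraries of the series, all from LLC1, a mouse cell line derived from the Lewis lung carcinoma and grown in culture. Untreated cells received 0.1% DMSO. The chemotherapy group received cisplatin at 2.5 µM and pemetrexed at 2.5 µM, the trametinib group received trametinib at 10 nM, and the combination group received all 3 drugs. Each group held 3 libraries at 24 h, and the other 12 libraries repeat the 4 groups at 6 h. Nothing in the labels ties the 3 libraries of a group to separate cultures, so each p-value reflects variation among libraries that may be technical in origin. The contrast follows from the design and was computed for every tested gene: the log2 effects of chemotherapy and of trametinib were subtracted from that of the combination. The series title names CXCL10, so its gene is given first.

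Cisplatin links bases of DNA to each other and stalls replication and transcription. Pemetrexed resembles folate and blocks enzymes that make thymidylate and purines, so cells run short of DNA building blocks in S phase. Trametinib inhibits MEK, the kinase that switches on ERK, and ERK signalling drives growth factor genes, cyclin D1 and much of the stress and metabolic programme of carcinoma cells. When drugs act on the same cell, an mRNA can answer to each of them independently, so that their folds multiply, or the response to one can change in the presence of the other.

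The value used throughout, called the interaction value below, is the log2 effect of the combination minus the log2 effects of chemotherapy and of trametinib, each against untreated cells. It is computed on log2(TPM + 1), where TPM is a transcript's length-corrected share of the library, and is given with its standard error (n = 3 libraries in each of 4 groups). A value of 0 means that the fold of the combination equals the product of the folds of its parts. A positive value means a level above that product, which can still be a low level: an mRNA that both parts lowered, and that the combination lowered no further, has a positive value. A negative value can go with the highest level of all where each part alone already raised the mRNA. Levels are therefore printed for most genes described, and higher or lower than the product is said only of genes with an adjusted p under 0.05. The pseudocount of 1 understates the folds of mRNAs below a few TPM, and it can shrink or enlarge their interaction values.

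Of 12581 genes tested, 3997 departed from the product of folds (31.8%). The interaction value was above 0 for 2040 of them (16.2% of all tested) and below 0 for 1957 (15.6%). Counts of called members in the gene lists below are to be read beside these shares. Under the Bonferroni rule of the series, at 0.10, 459 genes were higher and 362 lower. The median value over all genes was 0.00049, the median standard error 0.13 and the SD over genes 0.5. Past 2-fold stood 185 of the genes called higher and 112 of those called lower, and past 4-fold 18 and 9. The untreated, chemotherapy, trametinib and combination libraries enter these values and the single comparisons alike. Against untreated cells, 59.2% of genes passed the same test with chemotherapy, 58.7% with trametinib and 63.4% with the combination.

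Most departures were not extreme levels. The mean of the combination group lay between those of the other groups for 65.1% of the genes called higher and 71.2% of those called lower, beside 61.1% of all tested genes. All 3 combination libraries stood above the 9 other libraries of 24 h for 345 of the 2040 genes called higher, or 16.9%, where 10.2% of all tested genes did so. They stood below the 9 others for 91 of the 1957 genes called lower, or 4.65%, where 3.62% of all tested genes did so. After rescaling each library by the median ratio to the others these counts were 256 and 155. In 132 genes called lower the combination libraries were above all 9 others, and in 56 genes called higher they were below.

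The libraries of a 24 h group correlated at 0.982 to 0.992 with each other on the log2 scale, and each held 11530 to 11851 genes at 1 TPM or more. TPM is a share of all transcripts, so the read depth is not known, and a change in the total mRNA of a cell is not seen. In bulk RNA, fewer cells that express a gene and less of its mRNA per cell cannot be told apart. The epithelial genes Epcam and Cdh1 did not exceed 0.0164 and 0.154 TPM in any 24 h library, while Krt18 reached 121 to 361 TPM and the mesenchymal gene Vim 3296 to 4478 TPM. Of the markers of lung epithelium, none passed 0.655 TPM. Of the T cell genes, Cd3e was at 0 in all 12 libraries, while Cd3d stood at 0.435 to 1.17 TPM. The leukocyte genes Ptprc and Adgre1 were at or under 0.0121 TPM. Summed levels of the 7 macrophage markers still differed by group, from 13 to 14.4 TPM with trametinib to 49.4 to 53.7 TPM with chemotherapy, and most of that came from Cd68 and Cd14. The 4 B cell markers summed to 17.5 to 21.2 TPM with trametinib and to 8 to 10.4 TPM when all 3 drugs were given, beside 0.0231 to 0.0867 TPM untreated and 0.581 to 0.81 TPM with chemotherapy. Ighm carried most of that sum, with a mean of 19.7 TPM with trametinib, while Ms4a1 did not exceed 0.033 TPM in any 24 h library. The endothelial gene Pecam1 ranged from 2.52 to 12.7 TPM, with means of 3.06 TPM untreated and 9.64 TPM with chemotherapy. Cdh5, of the same class, did not exceed 0.0995 TPM. The part of these markers in the results below was not tested.

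Chemokines are secreted proteins that draw immune cells, and 12 of 17 listed members were tested. The combination was higher than the product of folds for 5 of them (Ccl7, Cxcl10, Ccl2, Cxcl2 and Cxcl3), lower for 1 (Cx3cl1), and the median interaction value of the list was 0.29. Cxcl10 (ENSMUSG00000034855.13, chr5:92346638-92348889, GRCm38, minus strand) encodes a ligand of the receptor CXCR3 on activated T cells. It stood at 0.39, 0.396 and 0.456 TPM in the untreated libraries, at 3.05, 3.06 and 2.42 TPM with chemotherapy, at 0.733, 0.617 and 0.486 TPM with trametinib, and at 10.7, 13 and 9.82 TPM with the combination. All 3 libraries of the combination lay above every other one, while the trametinib libraries stood next to the untreated ones. The product of the folds of its parts gives 3.36 TPM, and the interaction value was 1.47 ± 0.16 (adjusted p = 1.76e-06). On the TPM scale, too, the combination lay 8.14 TPM above the sum of the differences of its parts.

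Ccl7 and Ccl2, which attract monocytes through CCR2, are neighbouring genes of chromosome 11 in the mouse. Ccl7 (ENSMUSG00000035373.2, chr11:82045712-82047525) stood at 7.78, 7.74 and 7.91 TPM untreated, at 14, 11.4 and 13.5 TPM with chemotherapy, at 4.79, 3.11 and 3.62 TPM with trametinib, and at 24.5, 26.4 and 24.4 TPM with the combination. Trametinib alone lowered it, yet with chemotherapy present the level was the highest of the 4 groups, and the interaction value of 1.79 ± 0.19 (adjusted p = 7.9e-07) was the largest of the list. Ccl2 stood at 111 to 114 TPM untreated, 112 to 125 TPM with chemotherapy, 37.8 to 44.9 TPM with trametinib and 112 to 123 TPM with the combination. The trametinib libraries alone were low: in the combination the level overlapped that of untreated cells, 0.035 ± 0.12 from it (adjusted p = 0.812), and the interaction value was 1.38 ± 0.16 (adjusted p = 3.92e-06).

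Cxcl2 and Cxcl3 draw neutrophils through CXCR2. Cxcl2 stood at 0.0638 to 0.184 TPM untreated, 0.187 to 0.441 TPM with chemotherapy, 0.03 to 0.0767 TPM with trametinib and 1.36 to 1.63 TPM with the combination (1.02 ± 0.11, adjusted p = 1.42e-06). Cxcl3 reached 4.68 to 5.87 TPM with the combination, above 1.3 to 1.99 TPM with trametinib and at most 0.931 TPM elsewhere (0.96 ± 0.22, adjusted p = 0.00226). With a pseudocount of 0.1 the value for Cxcl3 was 0.89 (adjusted p = 0.342). Both are low mRNAs close to the pseudocount, and in both the combination libraries stood apart from the 9 others. Cxcl1, from the same cluster, stood at 37.1 to 48.6 TPM with the combination, 19.2 to 21.6 TPM with chemotherapy and 9.34 to 10.3 TPM with trametinib. The product of folds gives 33.7 TPM, and the interaction value of 0.33 ± 0.17 did not pass the test (adjusted p = 0.138). With a pseudocount of 5 the value for Cxcl1 was 0.43 (adjusted p = 0.00827), and without the second untreated library it was 0.46 (adjusted p = 0.0304), so the call for Cxcl1 depends on these choices. Cx3cl1, the membrane-bound ligand of CX3CR1, went the other way: it stood at 12.1 to 12.6 TPM with chemotherapy but at 6.87 to 7.98 TPM with the combination, near the 6.34 to 7.18 TPM of trametinib (-0.93 ± 0.12, adjusted p = 5.74e-06).

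**Figure D1:**
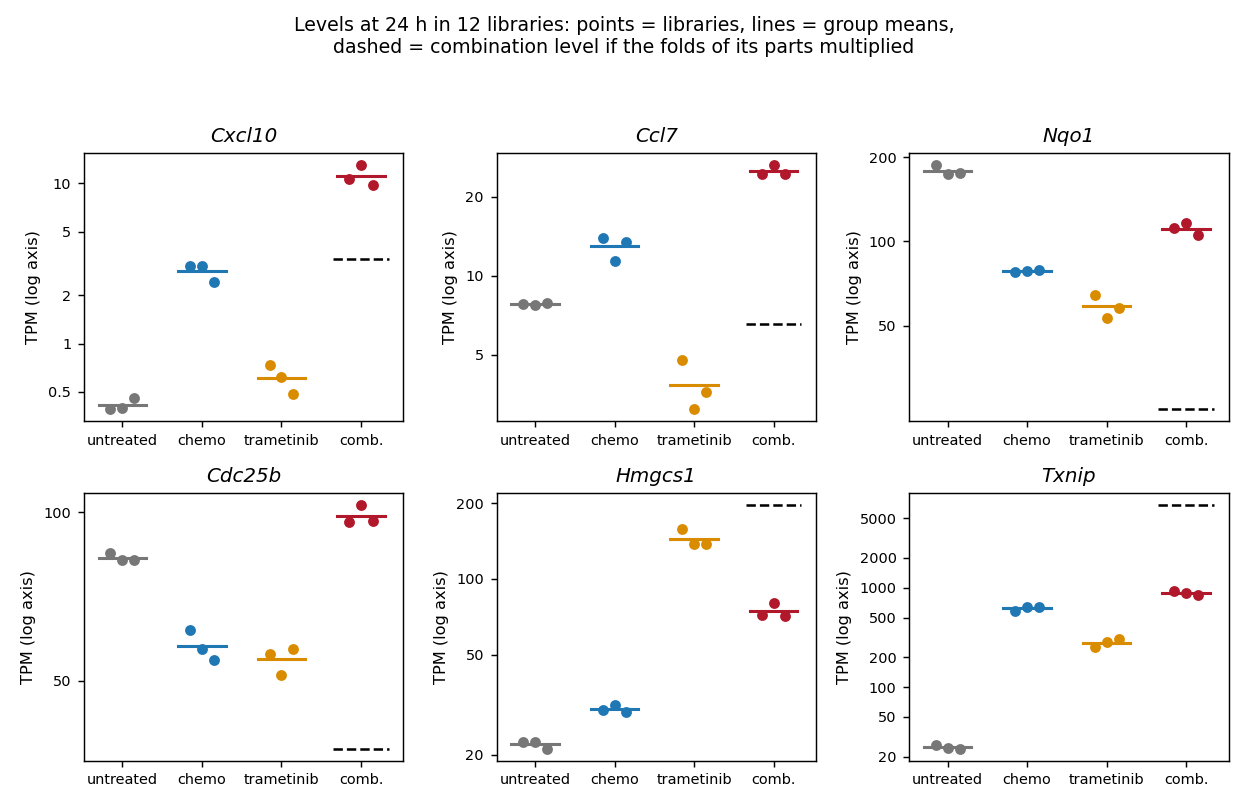
Levels in TPM (log axis) of 6 genes in the 12 libraries of 24 h, with points for libraries, solid lines for group means and a dashed line for the combination level that the product of the folds of its parts gives. Cxcl10, Ccl7, Nqo1 and Cdc25b lie above the dashed line, and Hmgcs1 and Txnip below it, although Txnip is highest with the combination.

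The promoters of the chemokine genes are shown because 4 of the 8 listed chemokines with a promoter in the RefSeq table (Cxcl1, Cxcl10, Cxcl2 and Cxcl3) hold the NF-kB motif GGANTTTCC on either strand, beside 1.45% of all 27025 promoters of the same 300 bases. Among genes called higher the share was 1.95%. Ccl7 and Ccl2 have no promoter in that set and are not among the 8, and Cxcl1 did not pass the test above. The window runs from 250 bases before to 50 bases after the start (RefSeq, GRCm38.p6). Capitals mark that motif, the interferon response core AAANNGAAA (12.1% of all promoters) and the AP-1 motif TGANTCA (8.97%). The Cxcl10 window (chr5:92348840-92349139, minus strand) holds all 3, beginning 212, 158 and 74 bases before the start, in the order AAAGTGAAA, GGAAATTCC and TGAGTCA. The Cxcl2 window (chr5:90903649-90903948, plus strand) holds the NF-kB motif alone, 96 bases before the start. A match describes the letters and is no evidence of binding.
Cxcl10: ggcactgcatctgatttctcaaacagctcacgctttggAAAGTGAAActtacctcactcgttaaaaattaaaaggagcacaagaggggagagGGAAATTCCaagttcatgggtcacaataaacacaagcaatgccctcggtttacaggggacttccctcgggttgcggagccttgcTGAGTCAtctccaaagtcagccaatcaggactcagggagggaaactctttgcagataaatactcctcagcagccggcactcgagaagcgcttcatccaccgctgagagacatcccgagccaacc
Cxcl2: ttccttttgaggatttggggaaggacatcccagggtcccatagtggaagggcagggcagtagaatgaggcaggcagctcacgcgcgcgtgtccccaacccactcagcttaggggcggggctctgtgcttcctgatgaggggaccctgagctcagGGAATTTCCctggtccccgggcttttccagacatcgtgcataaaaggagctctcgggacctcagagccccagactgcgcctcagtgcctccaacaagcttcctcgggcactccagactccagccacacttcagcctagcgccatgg

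Cxcl10 is itself inducible by interferon. Of 25 other tested genes that interferon induces, 10 were lower than the product and the other 15 did not pass the test, with a median of -0.29. The interferon response core stands in 10 of the 19 members with a promoter in the table, or 52.6%. Irf1, which encodes a regulator that interferon gamma switches on, stood at 9.85 to 10.8 TPM untreated, 25 to 26.4 TPM with chemotherapy, 29.2 to 33.2 TPM with trametinib and 41.8 to 46.9 TPM with the combination. Each drug arm raised it and the combination was the highest group, but the product of folds gives 75.3 TPM (-0.74 ± 0.087, adjusted p = 3.68e-06). Lgals3bp (-0.72 ± 0.12), Dtx3l (-0.57 ± 0.097) and Irf9, a subunit of the interferon-activated factor ISGF3 (-0.48 ± 0.1), were also raised by each drug arm and lower than the product. Isg15, a ubiquitin-like protein, reached 7.88 to 8.98 TPM with the combination, beside 5.47 to 6.44 TPM with trametinib and 2.1 to 2.72 TPM untreated (-0.28 ± 0.25, adjusted p = 0.425). Ifit2 gave -0.026 ± 0.097 (adjusted p = 0.869).

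Among 16 sensors of nucleic acids and their signalling proteins, 2 were higher (Mavs and Aim2) and 4 lower (Ifi204, Tmem173, Tlr3 and Rnaseh2a). Over all tested genes 16.2% were higher and 15.6% lower. Tmem173, which encodes STING, the adaptor for cytosolic DNA, stood at 37.8 to 41.1 TPM untreated, 71.3 to 77.8 TPM with chemotherapy, 39.3 to 44.9 TPM with trametinib and 50 to 53.4 TPM with the combination. Trametinib alone left the level of Tmem173 at 0.084 ± 0.05 from untreated cells (adjusted p = 0.154), yet with it the chemotherapy level was not reached (-0.59 ± 0.07, adjusted p = 4.1e-06). Ifi204, a DNA sensor of the mouse Ifi200 family whose members share sequence, gave -1.12 ± 0.16. The calls of Aim2, Tlr3 and Rnaseh2a were lost when any of several single libraries was left out, with adjusted p up to 0.0883, 0.115 and 0.132. With a pseudocount of 5 that of Tlr3 was 0.125. Mavs, the adaptor of RNA sensors, stood at 31.2 to 32.2 TPM with the combination and 25.4 to 27.2 TPM with trametinib (0.34 ± 0.052). Of 20 genes of antigen presentation on MHC class I, 2 passed the test, beside 31.8% of all tested genes. They were Nlrc5, the transcriptional activator of these genes (0.75 ± 0.18), and B2m, the light chain. B2m stood at 546 to 551 TPM untreated, 626 to 668 TPM with chemotherapy, 518 to 530 TPM with trametinib and 716 to 726 TPM with the combination, apart from all other libraries (0.23 ± 0.055, adjusted p = 0.00397).

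Of 13 ligands of immune checkpoints and NK cell receptors, 2 were higher (Pvr and Nectin2) and 3 lower (Lgals9, Cd80 and H60b). The shares over all tested genes were 16.2% and 15.6%. Without single libraries the adjusted p of Nectin2 reached 0.129 and that of H60b 0.0725. With a pseudocount of 0.1 that of H60b, which stood at 0.481 to 1.61 TPM in the 24 h libraries, was 0.154. Cd274, which encodes PD-L1, stood at 3.31 to 3.68 TPM with the combination, 3.73 to 4.72 TPM with chemotherapy, 1.43 to 2.02 TPM with trametinib and 2.37 to 2.47 TPM untreated, with a value of 0.082 ± 0.12 (adjusted p = 0.662). Lgals9, the galectin that binds TIM-3, stood at 83.4 to 96 TPM with the combination and at 78.6 to 81.4 TPM with trametinib alone, where the product gives 205 TPM (-1.16 ± 0.074). Cd80, a ligand of CD28 and CTLA-4, stood at 10.4 to 12.2 TPM with chemotherapy and 2.99 to 3.6 TPM with the combination (-0.99 ± 0.12). With trametinib alone Cd80 was at 0.131 to 0.225 TPM, and with a pseudocount of 0.1 its interaction value was -0.22 (adjusted p = 0.554), so the call rests on how low levels are treated. Pvr, the ligand of DNAM-1 and TIGIT, stood at 24.1 to 25.2 TPM with the combination, above the 14.1 to 16.1 TPM of trametinib and below the 34.5 to 40.3 TPM of untreated cells (0.53 ± 0.078).

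Target genes of NF-kB, a transcription factor of inflammation and stress, went both ways. Of 19 tested, 6 were higher and 3 lower, with a median of -0.03. Ptgs2 (ENSMUSG00000032487.8, chr1:150100031-150108227), which encodes the prostaglandin-forming enzyme COX-2, stood at 183, 147 and 183 TPM untreated, at 184, 189 and 169 TPM with chemotherapy, at 19, 15.5 and 18.2 TPM with trametinib, and at 85.2, 94.7 and 97.9 TPM with the combination. Chemotherapy alone did not move it past the test (adjusted p = 0.542), but in trametinib-treated cells the level with chemotherapy was 92.6 ± 6.64 TPM against 17.6 ± 1.85 TPM without it. The interaction value was 2.25 ± 0.16 (adjusted p = 5.72e-09), the second highest of the genes named by rank. Tnfaip3, the deubiquitinase A20 that restrains NF-kB, reached 6.22 to 6.71 TPM with the combination, beside 2.73 to 2.97 TPM with chemotherapy and under 1 TPM in the other groups (0.93 ± 0.1). Nfkbia, which encodes the inhibitor IκBα, stood at 65.8 to 71.5 TPM with the combination where the product gives 129 TPM (-0.89 ± 0.12). Lif, a cytokine of the IL-6 family, stood at 11.1 to 14 TPM with the combination, 22.6 to 25.9 TPM with chemotherapy and 1.74 to 2.07 TPM with trametinib (1.11 ± 0.17). On the TPM scale the sign for Lif is the opposite, -2.71 TPM.

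Genes that ERK induces were the list with the widest range. Of 28 tested members, 8 were higher and 4 lower, beside 16.2% and 15.6% of all tested genes, with values from -1.61 to 2.47. The highest interaction value of all named genes belonged to Areg (ENSMUSG00000029378.5, chr5:91139599-91148432), which encodes amphiregulin, a ligand of the EGF receptor. Areg stood at 96.8, 88 and 104 TPM untreated, at 107, 117 and 98.7 TPM with chemotherapy, at 2.52, 2.3 and 3.23 TPM with trametinib, and at 23, 18.4 and 24.1 TPM with the combination. Trametinib lowered Areg, and with chemotherapy added the mean was 21.8 ± 2.98 TPM in place of the 3.1 TPM that the product gives (2.47 ± 0.15, adjusted p = 1.2e-09). Other EGF receptor ligands went the same way: Hbegf stood at 16.4 to 18.5 TPM with the combination and 4.57 to 4.9 TPM with trametinib (1.13 ± 0.12), and Ereg at 15.6 to 18.2 TPM and 4.53 to 5.18 TPM (0.96 ± 0.13, with the opposite sign on the TPM scale, -3.1 TPM). Egfr, the receptor itself, stood at 27.8 to 30 TPM with the combination, beside 30.4 to 37.3 TPM with trametinib, 17.4 to 20.3 TPM with chemotherapy and 10.4 to 12 TPM untreated, above untreated cells but lower than the 54.9 TPM of the product (-0.92 ± 0.17).

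Feedback regulators of ERK mostly did not pass the test. Dusp6, a phosphatase of ERK, stood at 40.8 to 51.6 TPM with the combination and 40.7 to 50.6 TPM with trametinib (-0.12 ± 0.2, adjusted p = 0.704), and Spry4, an inhibitor of receptor signalling, at 8.6 to 12.9 TPM and 5.34 to 8.1 TPM (-0.13 ± 0.24, adjusted p = 0.741). Dusp4, a nuclear phosphatase, was higher than the product at 7.35 to 10.1 TPM with the combination, beside 2.96 to 3.33 TPM with trametinib and 37.1 to 50.3 TPM untreated (1.72 ± 0.24). Egr1, an immediate early transcription factor, was the lowest of the list: 22.9 to 25.8 TPM with chemotherapy, 1.04 to 1.54 TPM with the combination and at most 0.181 TPM with trametinib (-1.61 ± 0.14). With a pseudocount of 0.1 the value for Egr1 was -0.30 (adjusted p = 0.442). Fos, Fosb and Spry2 were the other members called lower, and without single libraries the adjusted p reached 0.102 for Fos and 0.0811 for Fosb. With a pseudocount of 0.1 it was 0.192 for Fos and 0.075 for Fosb. Both are low mRNAs, at most 2.1 TPM for Fos and 1.28 TPM for Fosb in the 24 h libraries. Myc stood at 208 to 269 TPM with the combination, overlapping untreated cells at 213 to 265 TPM, while trametinib alone gave 95.8 to 103 TPM (0.79 ± 0.16).

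NRF2 is the transcription factor that induces antioxidant and detoxifying enzymes, and its targets were the list with the highest median, 0.72. Of 25 tested members, 20 were higher than the product and the other 5 did not pass the test. The median log2 effect over the list was -0.42 with chemotherapy, -0.85 with trametinib and -0.48 with the combination. Nqo1 (ENSMUSG00000003849.8, chr8:107388225-107403206), a quinone reductase, stood at 187, 174 and 176 TPM untreated, at 77.5, 78.4 and 79.3 TPM with chemotherapy, at 64.5, 53.3 and 57.8 TPM with trametinib, and at 112, 116 and 105 TPM with the combination. For Nqo1 the combination lay above both parts in every library and below the untreated ones, and the product of folds gives 25.2 TPM (2.10 ± 0.095, adjusted p = 7.02e-11). Gclc, the catalytic subunit of glutathione synthesis, stood at 42.6 to 45.9 TPM untreated, 26.3 to 28.7 TPM with chemotherapy, 21.4 to 24.9 TPM with trametinib and 32.3 to 34.3 TPM with the combination (1.19 ± 0.089).

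Abcc1 and Txnrd1 overlapped trametinib alone. Abcc1, a drug and glutathione conjugate pump, stood at 43.5 to 44.9 TPM with the combination and 42.6 to 47.2 TPM with trametinib, after 113 to 124 TPM in untreated cells (1.15 ± 0.086). Txnrd1, thioredoxin reductase, stood at 85.4 to 95.1 TPM with the combination and 76.5 to 87.8 TPM with trametinib (1.08 ± 0.089). Hmox1, heme oxygenase, stood at 36.4 to 50.4 TPM with the combination and 13.7 to 18.1 TPM with trametinib, and overlapped the 36 to 44.9 TPM of untreated cells (0.95 ± 0.21). Nfe2l2, which encodes NRF2 itself and was looked at after its values were seen, stood at 191 to 193 TPM with the combination, 133 to 141 TPM with trametinib and 201 to 203 TPM untreated (0.42 ± 0.055), and Keap1, which encodes its inhibitor, gave 0.12 ± 0.13 (adjusted p = 0.56). Beyond the list, Ugt1a6a, a glucuronidating enzyme whose reads may be shared with other isoforms of the Ugt1a locus, stood at 24.1 to 28.1 TPM with the combination, above all 9 other libraries (2.09 ± 0.18). Aldh3a1, an aldehyde dehydrogenase, was at 2.4 to 2.76 TPM with the combination and at most 0.316 TPM in any other library (1.39 ± 0.11).

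The antioxidant response motif TGACNNNGC, searched for after the values were seen, stood in 8 of the 19 NRF2 targets with a promoter in the table (42.1%), beside 14% of all promoters and 17.7% of promoters of genes called higher. The window of Gclm, the regulatory subunit partner of Gclc (chr3:122245307-122245606, plus strand), is shown with the match GCACCGTCA in capitals on the opposite strand, beginning 134 bases before the start. Gclm stood at 55.2 to 61 TPM with the combination, 40.8 to 51.3 TPM with trametinib and 69.2 to 91 TPM untreated (0.54 ± 0.16, adjusted p = 0.0124).
Gclm: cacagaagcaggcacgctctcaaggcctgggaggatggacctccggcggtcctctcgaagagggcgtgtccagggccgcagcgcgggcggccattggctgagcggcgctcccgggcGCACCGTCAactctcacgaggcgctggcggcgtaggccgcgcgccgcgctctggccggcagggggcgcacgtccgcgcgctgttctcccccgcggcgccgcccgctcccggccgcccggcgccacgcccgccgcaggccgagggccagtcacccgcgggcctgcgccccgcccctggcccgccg

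ATF4 is the factor that answers amino acid shortage and other stresses that stop translation. Of 36 tested members of its response, 18 were higher than the product and 1 (Slc38a2) was lower, with a median of 0.30. Atf3, a stress-induced partner of ATF4 (ENSMUSG00000026628.13, chr1:191170296-191218039), stood at 18.8, 17.7 and 18.5 TPM untreated, at 43.4, 47.7 and 39.5 TPM with chemotherapy, at 5.86, 5.21 and 5.15 TPM with trametinib, and at 58.1, 61.5 and 64.7 TPM with the combination. Atf3 was lowered by trametinib alone and was nonetheless highest in the combination, above all 9 other libraries (2.09 ± 0.13, adjusted p = 2.25e-09). Ddit3, which encodes CHOP, a factor that promotes cell death under stress, stood at 105 to 120 TPM with the combination and 32.8 to 35.9 TPM with trametinib (1.37 ± 0.096). Against untreated cells 31 of the 36 members were lower with the combination, beside 23.8% of all tested genes. Ddit3 was among the 31, from 122 to 137 TPM untreated. Cth, an enzyme of cysteine synthesis, stood at 92.4 to 99 TPM untreated and 7.52 to 9.54 TPM with the combination, beside 6.21 to 6.75 TPM with trametinib, where the product gives 2.39 TPM (1.46 ± 0.15). Slc7a11, the cystine importer, was at 1.76 to 2.25 TPM with the combination and 1.78 to 2.14 TPM with trametinib, down from 24 to 26.2 TPM (1.43 ± 0.15). Atf4 mRNA itself gave -0.022 ± 0.078 (adjusted p = 0.866).

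Of 31 targets of p53, the factor that answers DNA damage, 12 were higher and 4 lower than the product, with a median of 0.26. Cdkn1a, the gene of the CDK inhibitor p21, stood at 239 to 272 TPM with the combination, 331 to 393 TPM with chemotherapy, 61.2 to 72.4 TPM with trametinib and 154 to 194 TPM untreated (0.80 ± 0.17), and on the TPM scale its sign is the opposite (-9.77 TPM). Mdm2, which encodes the ubiquitin ligase of p53, stood at 188 to 211 TPM with the combination, 471 to 519 TPM with chemotherapy and 45 to 47.9 TPM with trametinib. The product of folds gives 198 TPM beside a combination mean of 201 ± 11.8 TPM (SD), and the interaction value of 0.019 ± 0.12 did not pass the test (adjusted p = 0.929). Gadd45a, a growth arrest protein, had the highest value of the list (1.64 ± 0.18), with 14.3 to 16.3 TPM in the combination between the 8.67 to 9.15 TPM of trametinib and the 30.9 to 34.8 TPM of chemotherapy. Untreated cells held 54.6 to 78.2 TPM of Gadd45a, so each part and the combination lowered it. Sesn2, a stress-induced inhibitor of mTORC1 signalling, gave 1.25 ± 0.11. The members called lower were Fas, Plk2, Sesn1 and Ei24, and for Ei24 the adjusted p reached 0.0755 without single libraries. Fas, the death receptor, stood at 6.73 to 7.94 TPM with chemotherapy and 3.02 to 3.98 TPM with the combination (-0.92 ± 0.18).

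**Figure D2:**
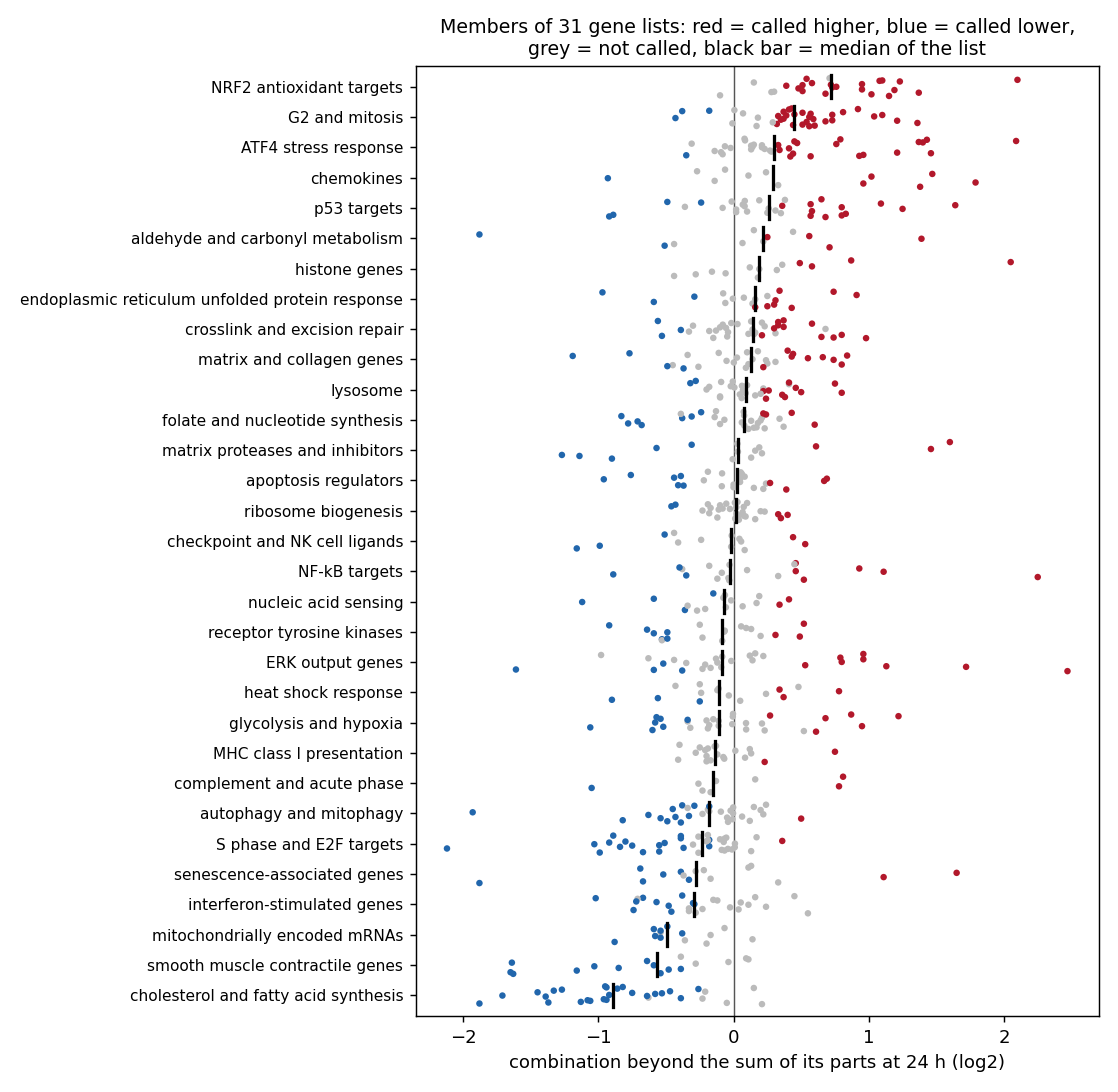
Interaction values at 24 h (log2) of the tested members of 31 gene lists, with 1 point per gene, red for called higher, blue for called lower, grey for neither, and a black bar at the list's median. NRF2 targets and G2 and mitosis genes lie mostly to the right of 0, with medians of 0.72 and 0.45, and cholesterol synthesis and smooth muscle genes to the left, with medians of -0.89 and -0.57.

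Genes of G2 and mitosis had the second highest median, 0.45. Of 36 tested, 27 were higher than the product and 3 were lower (Mki67, Mad2l1 and Birc5), beside 16.2% and 15.6% of all tested genes. Without single libraries the adjusted p reached 0.0542 for Mki67 and 0.0677 for Birc5. In 21 of the 27 the combination libraries also stood above all 9 others. Cdc25b (ENSMUSG00000027330.16, chr2:131186949-131198497), the phosphatase that activates CDK1 at mitotic entry, stood at 84.4, 82.1 and 82.1 TPM untreated, at 61.5, 56.9 and 54.4 TPM with chemotherapy, at 55.7, 51.2 and 57 TPM with trametinib, and at 96, 103 and 96.4 TPM with the combination. Each part alone lowered Cdc25b and the combination raised it, by 0.24 ± 0.061 against untreated cells (adjusted p = 0.00179), which gives an interaction value of 1.36 ± 0.087 (adjusted p = 2.34e-09). Aurka, a kinase of the spindle poles, was likewise lowered by each part and raised by the combination. It stood at 81.3 to 86.8 TPM untreated, 62 to 68.1 TPM with chemotherapy, 63.1 to 69.5 TPM with trametinib and 105 to 116 TPM with the combination (1.10 ± 0.085).

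In other mitotic genes chemotherapy alone lowered the level and trametinib alone did not pass the test. Ccnb2, a cyclin partner of CDK1, stood at 94.4 to 99.6 TPM untreated, 66.3 to 69.6 TPM with chemotherapy, 91.4 to 98 TPM with trametinib and 122 to 128 TPM with the combination (0.92 ± 0.07). Prc1, which bundles microtubules of the central spindle, stood at 130 to 146 TPM with the combination and 65.5 to 70.7 TPM with chemotherapy (1.04 ± 0.086). Nusap1, a microtubule-binding spindle protein, gave 1.21 ± 0.11 and Top2a, the topoisomerase of chromosome condensation, 0.81 ± 0.092. Ccnb1, the other main B-type cyclin (0.73 ± 0.085), was lowered by both parts, and its combination libraries were above all others. Foxm1, a transcription factor of this programme, rose with each part and with the combination, and its value was 0.0059 ± 0.089 (adjusted p = 0.971).

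Promoters of these genes are printed for a motif they share that the contrast did not use, the cell cycle homology element TTTGAA, which the DREAM and MuvB complexes read. It stood in 21 of the 29 members with a promoter in the table (72.4%), beside 20.2% of all promoters, 14.1% of those of tested genes, 18.3% of those of genes called higher and 12.6% of those of genes called lower. Ccnb2 (chr9:70421505-70421804, minus strand) holds it 167 bases before the start and again from 4 bases after it, and Aurka (chr2:172370521-172370820, minus strand) from 32 bases after it, counted in the RefSeq GRCm38.p6 windows. Capitals mark the motif.
Ccnb2: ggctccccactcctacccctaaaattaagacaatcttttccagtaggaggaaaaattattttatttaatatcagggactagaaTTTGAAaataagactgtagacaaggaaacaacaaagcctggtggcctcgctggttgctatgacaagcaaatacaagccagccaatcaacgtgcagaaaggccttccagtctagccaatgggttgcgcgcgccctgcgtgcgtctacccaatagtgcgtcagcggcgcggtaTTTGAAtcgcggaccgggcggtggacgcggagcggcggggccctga
Aurka: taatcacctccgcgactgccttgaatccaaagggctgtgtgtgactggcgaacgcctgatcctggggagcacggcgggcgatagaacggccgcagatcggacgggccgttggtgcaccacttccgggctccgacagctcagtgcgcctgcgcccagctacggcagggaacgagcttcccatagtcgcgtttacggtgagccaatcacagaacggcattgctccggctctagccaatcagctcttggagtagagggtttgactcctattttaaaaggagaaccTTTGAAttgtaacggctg

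S phase genes and targets of E2F serve DNA replication. Of 36 tested, 17 were lower than the product and 1 (Gins1) was higher, with a median of -0.23. The list was nonetheless raised, with a median log2 effect of 1.15 with chemotherapy, 0.35 with trametinib and 1.15 with the combination. Against untreated cells 35 of the 36 were higher with the combination, where 63.4% of all tested genes passed in either direction. Ccne2 (ENSMUSG00000028212.16, chr4:11191351-11204779), the cyclin that starts S phase with CDK2, stood at 15.1, 15.5 and 16.8 TPM untreated, at 162, 129 and 179 TPM with chemotherapy, at 33.4, 36.8 and 34 TPM with trametinib, and at 78.9, 65 and 82.9 TPM with the combination. Both parts raised Ccne2, and the combination lay between them, where the product gives 330 TPM (-2.12 ± 0.16, adjusted p = 1.87e-08). Cdc6, a licensing factor of replication origins, stood at 76.7 to 83.5 TPM with the combination and 78.2 to 85 TPM with chemotherapy, overlapping chemotherapy alone (-1.03 ± 0.11). Pcna, the sliding clamp of DNA polymerase, gave -0.55 ± 0.076 and Rpa2, which covers single-stranded DNA, -0.75 ± 0.068. The replicative helicase subunit Mcm2 stood at 82 to 101 TPM with the combination and 88.4 to 102 TPM with chemotherapy, with a value of -0.10 ± 0.11 (adjusted p = 0.54).

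Of 30 enzymes of folate and nucleotide synthesis, the pathway that pemetrexed blocks, 4 were higher and 7 lower, beside 16.2% and 15.6% of all tested genes. Tyms, thymidylate synthase, stood at 72.1 to 79.7 TPM with the combination and 76.9 to 80.2 TPM with chemotherapy (-0.78 ± 0.1), and Rrm2, a subunit of ribonucleotide reductase, at 247 to 254 TPM and 311 to 348 TPM (-0.68 ± 0.11). Gart, a purine synthesis enzyme, gave 0.08 ± 0.094 (adjusted p = 0.563). The histone gene H2afx encodes the variant that marks DNA breaks. H2afx (ENSMUSG00000049932.3, chr9:44334694-44336077) stood at 31.3, 30.8 and 33.4 TPM untreated, at 2.72, 2.13 and 2.99 TPM with chemotherapy, at 30.2, 31.8 and 31.3 TPM with trametinib, and at 13.1, 13.9 and 13.7 TPM with the combination. Trametinib alone did not move H2afx past the test (-0.033 ± 0.13, adjusted p = 0.85), and the combination lay above chemotherapy in every library, where the product gives 2.51 TPM (interaction value 2.05 ± 0.19, adjusted p = 1.56e-07). Histone transcripts can share sequence, so the value is uncertain in that respect.

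Cholesterol and fatty acid synthesis was the list that lay furthest below the product. Of 30 tested genes 24 were lower, the other 6 did not pass the test, and the median was -0.89. The lowest was Hsd17b7, a reductase of the pathway, at -1.88. Hmgcs1 (ENSMUSG00000093930.2, chr13:119690379-119708260), which starts the mevalonate pathway, stood at 22.5, 22.4 and 21.1 TPM untreated, at 30.1, 31.5 and 29.6 TPM with chemotherapy, at 158, 138 and 138 TPM with trametinib, and at 72, 80.2 and 71.4 TPM with the combination. Chemotherapy and trametinib each raised Hmgcs1, and all 3 libraries with both lay below those with trametinib alone, where the product gives 197 TPM (-1.39 ± 0.11, adjusted p = 1.81e-08).

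For Nsdhl, a dehydrogenase of the pathway, chemotherapy alone did not pass the test. Nsdhl stood at 7.69 to 7.91 TPM with chemotherapy and 8.12 to 8.5 TPM untreated, yet at 15.5 to 17.4 TPM with the combination where trametinib alone gave 32.7 to 36.9 TPM (-0.95 ± 0.081). Sc5d, a desaturase, was raised by both parts: it overlapped between the combination (65.3 to 71.3 TPM) and trametinib (62.4 to 69 TPM), with 49.8 to 52.5 TPM in chemotherapy libraries (-1.08 ± 0.07). Srebf2, which encodes the sterol-sensing factor SREBP2, did not pass the test (-0.23 ± 0.19, adjusted p = 0.406). The sterol response motif TCACNCCAC, also searched for after the values were seen, stood in 1 of 21 members with a promoter in the table, beside 1.44% of all promoters. That member is Hmgcs1, shown with the match in capitals from 137 bases before the start (chr13:119690101-119690400, plus strand).
Hmgcs1: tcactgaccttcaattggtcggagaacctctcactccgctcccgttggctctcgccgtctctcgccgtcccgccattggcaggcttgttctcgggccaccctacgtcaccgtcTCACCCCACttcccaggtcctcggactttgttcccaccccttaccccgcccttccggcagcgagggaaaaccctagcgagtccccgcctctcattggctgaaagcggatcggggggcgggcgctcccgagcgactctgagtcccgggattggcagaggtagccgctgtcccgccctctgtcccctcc

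**Figure D3:**
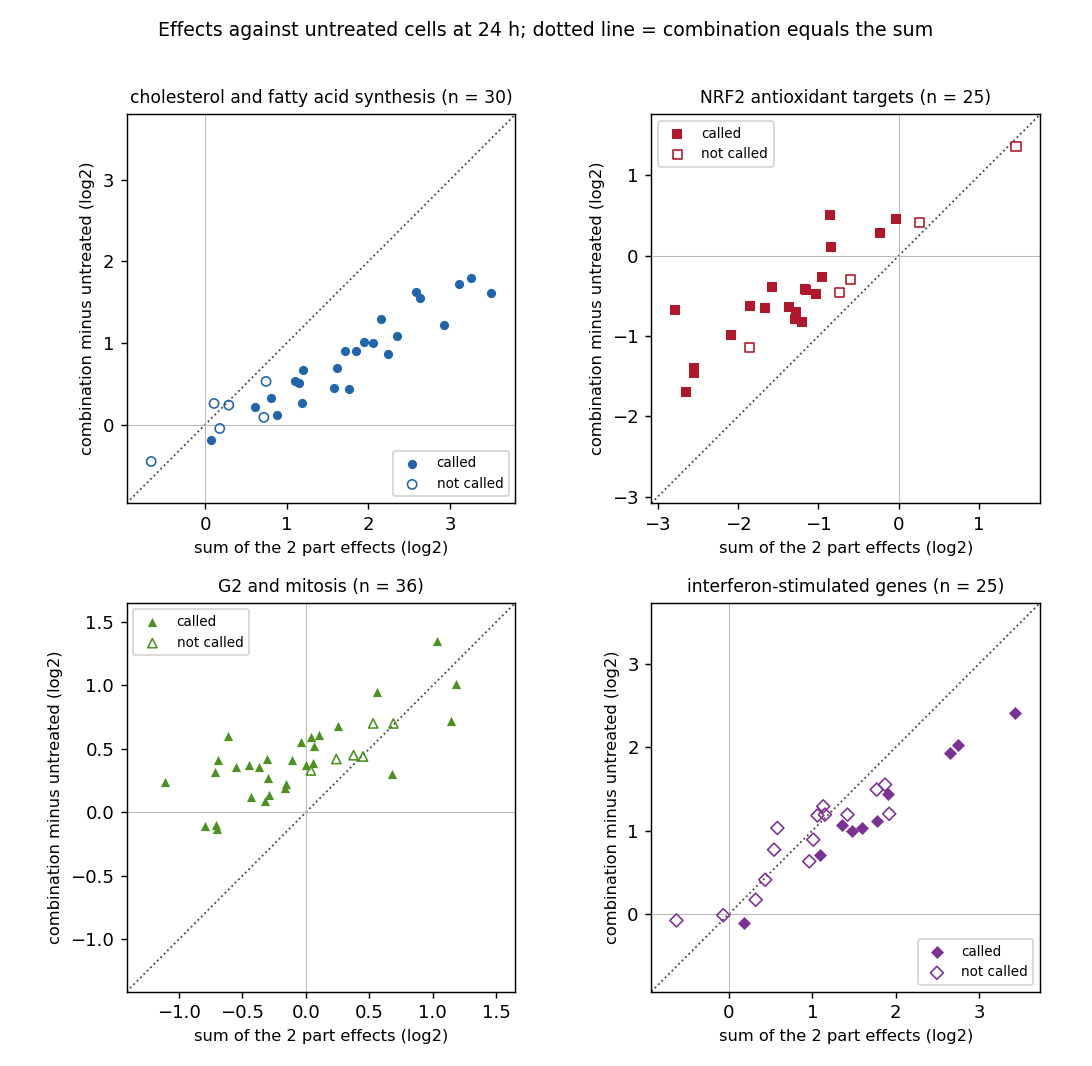
Sum of the log2 effects of chemotherapy and trametinib (x axis) against the log2 effect of the combination (y axis), all against untreated cells at 24 h, for the tested members of 4 gene lists, with filled marks for called genes and a dotted line where both are equal. Cholesterol genes lie below the line at positive sums, NRF2 targets above it at negative sums, and 27 of 36 G2 and mitosis genes were called above it.

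Smooth muscle and contractile genes mark a mesenchymal state. Of 16 tested, 11 were lower than the product and the other 5 did not pass, with a median of -0.57. Acta2 (ENSMUSG00000035783.9, chr19:34241090-34255590), smooth muscle actin, stood at 5.95, 6.58 and 6.53 TPM untreated, at 3.01, 3.29 and 3.18 TPM with chemotherapy, at 162, 138 and 123 TPM with trametinib, and at 25.3, 29.1 and 20.6 TPM with the combination. Acta2 was high with trametinib alone and far less so with all 3 drugs (-1.63 ± 0.14, adjusted p = 6.47e-08). Des, which encodes desmin, was raised mostly by chemotherapy, to 12.6 to 13.8 TPM, and stood at 4.96 to 5.63 TPM with the combination (-1.65 ± 0.17). Of 28 matrix and collagen genes 9 were higher and 4 lower. Col1a2, a collagen chain, reached 2.95 to 3.57 TPM with the combination and stayed under 1 TPM in all other libraries (0.84 ± 0.12), while Tnc, tenascin C, stood at 2.69 to 3.1 TPM with trametinib and 0.648 to 0.89 TPM with the combination (-1.19 ± 0.12). Spp1, which encodes osteopontin, stood at 726 to 879 TPM with the combination, 640 to 706 TPM with trametinib and 2407 to 2561 TPM untreated (0.80 ± 0.12). The 5 fibroblast markers summed to 5.64 to 6.27 TPM untreated, 27.6 to 28.1 TPM with trametinib and 44.1 to 49.4 TPM with the combination, and most of that sum came from Dcn and Pdgfra. The mean of Dcn was 27.8 TPM with the combination, 11.7 TPM with trametinib, 3.41 TPM with chemotherapy and 1.32 TPM untreated. The means of Col1a1 in the same order were 5.59, 5.7, 0.352 and 0.159 TPM. Lum was at most 2.03 TPM. The part of these markers in the matrix result was not tested.

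Of 15 matrix proteases and inhibitors, 3 were higher (Mmp19, Mmp3 and Mmp13) and 5 lower, beside 16.2% and 15.6% of all tested genes. Mmp3, stromelysin, stood at 45.8 to 53.5 TPM with the combination, 7.97 to 8.67 TPM with trametinib, 141 to 163 TPM with chemotherapy and 67.6 to 79.7 TPM untreated (1.46 ± 0.12), and on the TPM scale the sign is the opposite (-32.7 TPM). Mmp19 stood at 9.82 to 10.6 TPM with the combination and 3.57 to 4.48 TPM with trametinib (1.60 ± 0.12). Plat, tissue plasminogen activator, was raised by each part and overlapped them in the combination: 10.4 to 11.4 TPM untreated, 22.7 to 23.8 TPM with chemotherapy, 21.5 to 27.8 TPM with trametinib and 19.3 to 25.3 TPM with the combination (-1.14 ± 0.14).

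The second lowest interaction value of the genes named by rank belonged to Txnip (ENSMUSG00000038393.14, chr3:96557957-96561883), an inhibitor of thioredoxin and glucose uptake. Txnip stood at 26, 24.1 and 24 TPM untreated, at 583, 641 and 639 TPM with chemotherapy, at 252, 285 and 304 TPM with trametinib, and at 925, 881 and 845 TPM with the combination. All 3 combination libraries were the highest of the 12, but multiplied folds give 6787 TPM (-2.94 ± 0.19, adjusted p = 2.42e-09). On the TPM scale the rises added up, with a difference from their sum of 6.55 TPM. Angptl4, an inhibitor of lipoprotein lipase, was also highest with the combination, at 36.8 to 40.7 TPM. It stood at 12.1 to 13.2 TPM with chemotherapy and 13.2 to 18.3 TPM with trametinib (-1.88 ± 0.19, and 10 TPM above the sum on the TPM scale). Cbr2, a carbonyl reductase, was mainly raised by trametinib, to 82.1 to 92.4 TPM, and stood at 49.4 to 67.6 TPM with the combination (-1.88 ± 0.28). Over all genes the TPM scale gave the other sign for 31 of those called higher and 16 of those called lower.

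Autophagy genes, which serve the digestion of cell parts, were lower than the product in 12 of 30 cases and higher in 1, Sqstm1, with a median of -0.18. Atg9b, a lipid scramblase of early autophagosomes, stood at 28.4 to 30.3 TPM with chemotherapy, 3.47 to 3.93 TPM with the combination and 0.58 to 0.782 TPM with trametinib (-1.93 ± 0.11). Map1lc3b, which encodes the autophagosome protein LC3B, stood at 274 to 288 TPM with the combination, 218 to 275 TPM with chemotherapy, 230 to 247 TPM with trametinib and 149 to 155 TPM untreated (-0.45 ± 0.089). Of 30 lysosomal genes 10 were higher and 2 lower. Ctsl, a cathepsin, stood at 911 to 986 TPM untreated, 596 to 641 TPM with the combination and 354 to 384 TPM with trametinib (0.80 ± 0.081).
Of the 13 mRNAs encoded by mitochondrial DNA, 7 were lower than the product and the other 6 did not pass, with a median of -0.49. The level of mt-Cytb, a subunit of respiratory complex III, was 6728 to 7095 TPM with the combination, 7919 to 8097 TPM with trametinib, 5769 to 6596 TPM with chemotherapy and 3680 to 4429 TPM untreated (-0.88 ± 0.091). The lowest of the other members called, mt-Nd5, gave -0.59 and the highest of the list, mt-Co1, 0.14 without passing.

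Some of the genes named by their rank were receptors and signalling proteins. Il1rl1, the receptor of interleukin 33, stood at 282 to 311 TPM untreated, 114 to 127 TPM with chemotherapy, 49.6 to 70.8 TPM with trametinib and 89.6 to 105 TPM with the combination (2.03 ± 0.18). Creg1, a secreted glycoprotein of the lysosome, stood at 28.3 to 30.5 TPM with the combination, above chemotherapy at 19.8 to 23.9 TPM and trametinib at 13.4 to 16.5 TPM, and below untreated cells at 47.2 to 54.2 TPM (2.07 ± 0.12). For P2rx3 (1.96 ± 0.25) and Angptl6 (1.95 ± 0.29) both drug arms and the combination were low, at 0.285 to 3.89 TPM, and the product falls below 0 TPM, so these values depend on the pseudocount. Fam171b gave 1.77 ± 0.23 and Prl2c2, a member of the prolactin family whose copies share sequence, 1.75 ± 0.16.
Among genes whose combination libraries stood above the 9 others, the highest after those already given were Xdh, xanthine dehydrogenase (1.67 ± 0.11), Sybu, a kinesin adaptor (1.52 ± 0.1), Mgp, a calcification inhibitor (1.38 ± 0.18), and Lrrn3 (1.36 ± 0.14). Xdh stood at 48 to 55.8 TPM with the combination, 32.8 to 35 TPM untreated, and 19.9 to 25.1 TPM in the arms of its parts.

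Genes whose combination libraries lay below the 9 others had smaller values. Dffb, the nuclease that cuts DNA in apoptosis, stood at 3.85 to 4.43 TPM with the combination, 10 to 11.4 TPM with chemotherapy, 4.64 to 5.19 TPM with trametinib and 4.83 to 5.91 TPM untreated (-1.04 ± 0.19). Hmgb3, a chromatin protein, stood at 18.2 to 21.1 TPM with the combination and at least 29.9 TPM in every other library (-0.82 ± 0.097). Hilpda, a lipid droplet protein, stood at 24.8 to 30.2 TPM, below the 35.6 to 40.1 TPM of trametinib (-0.70 ± 0.11). Erbb2, a receptor kinase of the EGF receptor family, was at 5.78 to 5.89 TPM with the combination and 6.73 to 11.2 TPM elsewhere (-0.53 ± 0.086).
In a few of the lowest genes the libraries of a group disagreed. Calb1, a calcium-binding protein, had the lowest interaction value, -5.34 ± 0.98 (adjusted p = 0.000363), but its chemotherapy libraries held 178, 30.3 and 205 TPM and its combination libraries 4.93, 6.92 and 21.7 TPM. Pih1d1 (-2.47 ± 0.69), Phkg1 (-2.31 ± 0.43) and Nme6 (-1.74 ± 0.51) spread in the same way, and Nme6 did not pass in a fit of the 12 libraries of 24 h alone (adjusted p = 0.0623). The 3 long noncoding RNA genes with the smallest p, C030034I22Rik (0.97 ± 0.14), 1500002C15Rik (0.83 ± 0.13) and 9330151L19Rik (0.70 ± 0.1), were each lowered by both parts and by the combination. The annotation lists 1500002C15Rik as antisense, so its reads may come from the overlapping gene.

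The share of genes called higher differed with gene length, a feature the contrast did not use. Of 216 protein-coding genes that span over 300 kb from start to end, 56% were called higher and 2.78% lower. Of 2812 that span up to 10 kb, 11.1% were called higher and 18.8% lower, and over all 11502 the shares were 17.1% and 16.6%. The median interaction value was 0.47 in the longest class and -0.063 in the shortest, and Spearman's rho between span and value over the 11502 genes was 0.182, across genes that are not independent replicates. In the longest class the median log2 effect was -0.71 with chemotherapy, 0.016 with trametinib and -0.26 with the combination. Trappc9, a subunit of a membrane trafficking complex that spans 471585 bases of chromosome 15, stood at 16.5 to 18.6 TPM untreated, 0.821 to 1.17 TPM with chemotherapy, 13.5 to 14.1 TPM with trametinib and 3.9 to 4.75 TPM with the combination (1.73 ± 0.11). Every combination library of Trappc9 lay above the chemotherapy libraries and below the trametinib ones. Akap6, an anchor of protein kinase A that spans 456217 bases, stood at 0.887 to 0.94 TPM with chemotherapy and 4.9 to 6.22 TPM with the combination, above all other libraries (1.35 ± 0.12).

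**Figure D4:**
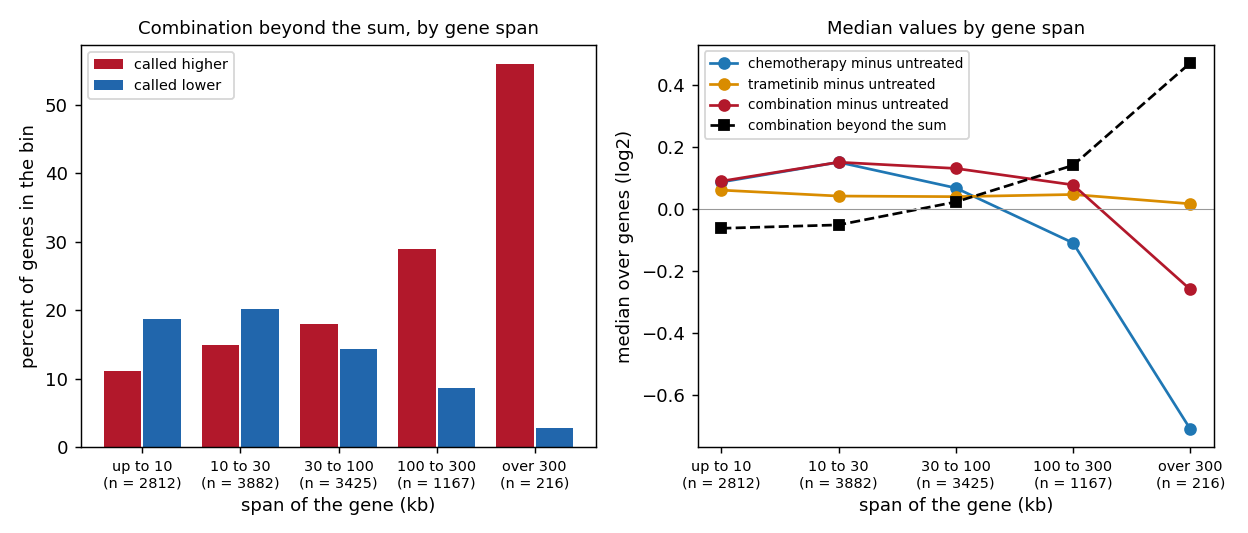
Left, percent of protein-coding genes called higher (red) and called lower (blue) in the interaction at 24 h, by the span of the gene in kb, with the number of genes under each class. Right, medians over the same genes of the log2 effects of chemotherapy, trametinib and the combination and of the interaction value: in genes over 300 kb the chemotherapy median is -0.71, the combination median -0.26 and the interaction median 0.47.

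The same contrast in the libraries of 6 h gave far fewer calls. At 6 h 12 genes passed (0.0954%), 11 higher and 1 lower, although 1548 had an unadjusted p under 0.05, where 5214 had it at 24 h. The SD of the interaction value over genes was 0.32 at 6 h and 0.5 at 24 h. Of the 12 genes, 5 belong to the ATF4 list: Ddit3 (0.77 ± 0.096), Cth (0.90 ± 0.15), Pycr1, an enzyme of proline synthesis (0.66 ± 0.12), Gpt2, an alanine aminotransferase (0.76 ± 0.13), and Vldlr, a lipoprotein receptor (0.87 ± 0.12). Mthfd2, a mitochondrial folate enzyme, gave 0.52 ± 0.089 at 6 h and 0.43 ± 0.089 at 24 h. The gene called lower at 6 h was Gas1, a growth arrest protein (-0.38 ± 0.07). The count moved between 3 and 41 when single 6 h libraries were left out, by over 1.5 times for all but the third chemotherapy, the third trametinib and the second combination library. Of the 12, 9 were also called at 24 h. The other 3 were Vldlr (0.13 ± 0.12 at 24 h), Gpt2 (0.28 ± 0.13) and Cryab, a small heat shock protein (-0.43 ± 0.19).

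The difference between the times was tested directly, as the interaction value at 24 h minus that at 6 h. It passed for 1879 genes (14.9%), 776 with a greater and 1103 with a smaller value at 24 h. For Cxcl10 the value at 6 h was 0.045 ± 0.16 and the difference 1.43 ± 0.23 (adjusted p = 0.000402). For Ccl7 the difference was 1.65 ± 0.26, for Areg 1.99 ± 0.21, for Nqo1 1.77 ± 0.13 and for Hmgcs1 -1.21 ± 0.15. Cryab differed the other way, with 1.24 ± 0.19 at 6 h and a difference of -1.68 ± 0.26 (adjusted p = 0.0003). With a pseudocount of 5 its value at 24 h turned to 0.43, so its direction rests on how low levels are treated. Ddit3 was called at both times and its value was greater at 24 h by 0.60 ± 0.14 (adjusted p = 0.00569). Of the 25 NRF2 targets 17 differed between the times, of the 36 G2 and mitosis genes 13, and of the 30 cholesterol genes 15. Over all tested genes the values of the 2 times correlated at 0.34, and over the genes called at 24 h at 0.49 (Pearson's r across genes, which are not independent replicates).

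**Figure D5:**
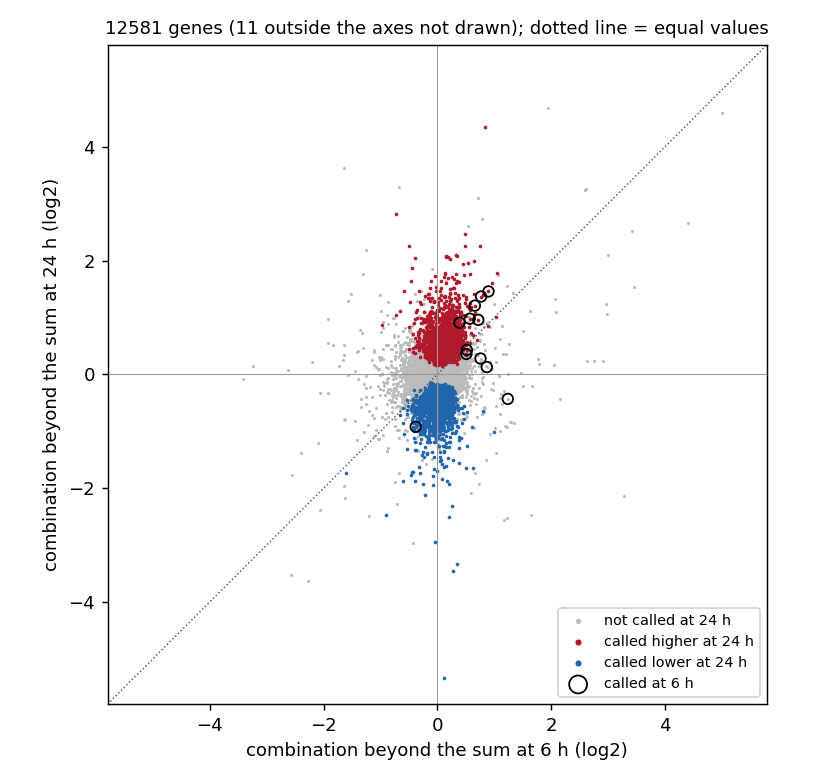
Interaction values at 6 h (x axis) against 24 h (y axis), both log2, with 1 point per tested gene, red and blue for genes called higher or lower at 24 h, black circles around the 12 called at 6 h and a dotted line of equal values. The 11 genes outside the axes are processed pseudogenes. Of the 12 circled genes, 9 are red or blue. Genes were coloured by their value on the y axis, so their spread along it follows from the choice.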

How the data were processed

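RNA of LLC1 cells was sequenced in 24 libraries, and the 12 of 24 h carry the report. The authors deposited TPM values per transcript, made with kallisto 0.45 after bcl2fastq 2.17.1.14 on GRCm38, per the submitters' processing notes. Which release of the transcripts was indexed is not stated in the labels. No read depth can be recovered from TPM. The series' design text names a test on counts with a Bonferroni threshold of 0.10, which TPM do not allow. Of 82934 transcripts, 79662 matched a gene of the GENCODE M21 annotation of GRCm38 and were summed over 28328 genes. The other 3272 held 4.45% to 5.98% of TPM. Genes at 1 TPM or more in at least 3 libraries (12581) were fitted on log2(TPM + 1) with limma 3.58.1 in R 4.3.3, with 8 group means over all 24 libraries (16 residual degrees of freedom) and a mean-variance trend. P-values are limma's, with Benjamini-Hochberg adjustment over all genes at 0.05, and ± after a log2 value is its standard error. No pair of libraries held identical values, and all per-sample columns were used.

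On simulated data with 50 genes changed per fold over 12581 genes, the 24 h contrast called 5, 29, 42 and 49 of them at 1.25, 1.5, 2 and 4-fold, and 0 with none changed. The simulated spread was drawn independently for each gene and library. Deviations that the genes of a library share were not simulated, so the 0 does not cover them. Far fewer genes were changed than the 3997 called in the data, and the adjusted p depends on that number. The shares found per fold therefore need not hold for the data.

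The members and the gene lists were chosen with earlier results of these data known. Named genes are Cxcl10, the 15 highest and 15 lowest called protein-coding genes with 5 TPM in some group, the 10 highest above and 10 lowest below the 9 other libraries, from each list the first 2 tested members and as many as 4 called ones of smallest p, and 3 long noncoding RNAs. Not all are named, and some are not reported here. Outside this rule, and chosen after their values were seen, are the genes called at 6 h, Cx3cl1, Cxcl3, Tlr3, Rnaseh2a, Nectin2, Ereg, Myc, Fos, Fosb, Spry2, Spry4, Gclm, Txnrd1, Nfe2l2, Keap1, Slc7a11, Slc38a2, Fas, Sesn1, Ei24, Mki67, Mad2l1, Birc5, Nusap1, Top2a, Foxm1, Gins1, Srebf2, Mmp13, mt-Nd5, mt-Co1, Lmnb1 and Hmgb2. Motifs were searched on both strands of RefSeq promoter windows.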

Additional observations from a re-analysis of the deposited data

Results flagged for a closer look

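For 1879 genes the interaction value differed between 24 h and 6 h by limma's test of the difference itself. The named genes among them are given with the value at 24 h minus that at 6 h, on the log2 scale. The value was greater at 24 h for the cytokine and growth factor genes Cxcl10 (1.43), Ccl7 (1.65), Areg (1.99) and Prl2c2 (1.29), and for the receptors Il1rl1 (1.81) and P2rx3 (1.41). Among enzymes and stress genes it was greater for Ptgs2 (1.76), Nqo1 (1.77), Ugt1a6a (1.93), Atf3 (1.73), Dusp4 (1.60) and H2afx (2.45). It was also greater for Creg1 (1.92), Angptl6 (1.49), Fam171b (1.44) and Trappc9 (1.76).

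The value was smaller at 24 h for the metabolic genes Txnip (-2.90), Cbr2 (-2.05), Hsd17b7 (-1.48), Angptl4 (-1.28) and Phkg1 (-2.56). It was smaller for the S phase cyclin gene Ccne2 (-1.91), the autophagy gene Atg9b (-1.67) and the contractile gene Des (-2.27), and for the secreted or surface proteins Aspn (-1.93), Fgfbp3 (-1.71) and Selp (-1.61). Calb1 (-5.46) had the largest difference of the named genes, and libraries within several of its groups disagreed with each other: it stood at 30.3 to 205 TPM with chemotherapy, 19.2 to 44.1 TPM with trametinib and 4.93 to 21.7 TPM with the combination.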

How the results depend on the processing

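Counts of genes moved by over 1.5 times under the Bonferroni threshold of 0.10, to 459 higher and 362 lower at 24 h, 4 at 6 h, and 97 greater and 117 smaller for the difference of the times. The 12 genes called at 6 h became 7 with a pseudocount of 0.1, 19 with a pseudocount of 5, and 3 to 41 without single libraries. Rescaling by the median ratio gave 155 genes called lower with the combination below the 9 others, in place of 91. Without single libraries the 24 h counts ran from 1699 to 2024 higher and 1676 to 1976 lower, and the difference of the times from 644 to 833 and 881 to 1381. On the TPM scale the sign was the opposite for Angptl4 (10 TPM), C1s1 (21.8), Cdkn1a (-9.77), Ereg (-3.1), Lif (-2.71), Mmp3 (-32.7) and Txnip (6.55), and Cryab turned to 0.43 with a pseudocount of 5. The cause was not tested.

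Whether samples that share a replicate number deviate together was not clear. The 18 pairs of 24 h correlated from -0.358 to 0.335, with 10 above 0 and 7 above 0.1. Of the 12 libraries of 24 h, 8 correlated best, on average, with libraries of their own number. The main fit holds no replicate block. With the replicate block 1883 genes were higher and 1800 lower at 24 h, 4 were called at 6 h, and 657 and 919 differed between the times. A share of all transcripts cannot show a change in total mRNA, and low genes depend on the pseudocount.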

Other observations

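Of 35 genes that repair crosslinks and excise damaged bases, 11 were higher than the product and 3 lower, with a median of 0.14. Counts in these lists stand beside 16.2% higher and 15.6% lower among all tested genes. Ercc5, the nuclease XPG of excision repair, stood at 34 to 38.2 TPM untreated, 49.3 to 56 TPM with chemotherapy, 16.8 to 19.7 TPM with trametinib and 47.6 to 48.1 TPM with the combination (0.80 ± 0.088). Ercc1, a nuclease subunit that acts on cisplatin damage, stood at 22.9 to 30.2 TPM with the combination and 28 to 31.9 TPM untreated, lower than the product (-0.56 ± 0.14). Of 24 regulators of apoptosis, 4 were higher and 6 lower. Bcl2l1, which encodes the survival protein BCL-XL, stood at 59.8 to 61.9 TPM with the combination and 45.3 to 48.5 TPM with trametinib (0.67 ± 0.098). Bmf, a death-promoting member of the same family, stood at 7.22 to 11.1 TPM with the combination, 13.3 to 14.5 TPM with trametinib and at most 1.52 TPM in the other groups (-0.96 ± 0.25).

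The unfolded protein response had 8 of 18 genes higher and 3 lower, and the heat shock response 3 of 15 in each direction. Ern1, the sensor IRE1, was higher than the product (0.91 ± 0.11), though it stood at 42.6 to 45.8 TPM with the combination and 64.5 to 68.9 TPM untreated. The co-chaperone Dnajb9 was lower than the product (-0.97 ± 0.11), with 37.6 to 39.8 TPM against 19.2 to 20.1 TPM untreated. The cytosolic chaperone genes Dnajb1 (-0.90 ± 0.078) and Hspa8 (-0.56 ± 0.085) were lower than the product as well, and above their untreated levels with the combination. Of 29 genes of glycolysis and hypoxia, 6 were higher and 7 lower. Vegfa, the vascular growth factor, stood at 122 to 130 TPM untreated and at 51.2 to 65.5 TPM in all 9 drug-treated libraries (0.95 ± 0.1). Of 15 genes tied to senescence, 2 were higher and 6 lower than the product. Lmnb1, which encodes lamin B1, stood at 71.1 to 75.9 TPM with the combination and 51.5 to 57.1 TPM untreated, above untreated cells but below the 120 TPM of the product (-0.69 ± 0.07). Hmgb2, a chromatin protein, stood at 176 to 182 TPM with the combination and 77.3 to 81.3 TPM untreated, where the product gives 287 TPM (-0.67 ± 0.056). The complement protease gene C1s1 stood at 117 to 136 TPM with the combination, above 81.7 to 93 TPM with trametinib and 26 to 32.3 TPM with chemotherapy, where the product gives 269 TPM (-1.05 ± 0.19).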
